A study of Caenorhabditis elegans with 4 samples.

Results

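Chromosome V of the nematode Caenorhabditis elegans carried 687 of the 3728 regions (18.4%) in which the tagged nuclear protein EGL-27::GFP was found enriched by ChIP-seq in fed larvae of the L1 stage. The regions were taken by position alone, as every region of the deposited list on chromosome V. Their q-values, widths and distances played no part in which regions were taken. The chromosome itself was chosen with earlier results of these data known. Chromatin came from hermaphrodites of strain OP177, which are unc119(ed3) mutants with the bombarded transgene wgIs177. It adds egl-27 fused to TY1, EGFP and FLAG tags, together with an unc119 copy. The worms were grown at 20 °C on a lawn of E. coli HB101 and crosslinked with 2% formaldehyde. There were 2 ChIP libraries, made with a goat antibody against GFP, and 2 input libraries of DNA that was not precipitated. Both groups are of this one strain, a strain without the tag was not analysed here, and the tagged protein is encoded by an added copy of the gene. The protocol text speaks of embryos being lysed, while the stage given for all 4 libraries is fed L1.

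EGL-27 is related to the MTA proteins of the NuRD chromatin remodelling complex and has a GATA-type zinc finger. In the worm it is known for roles in embryonic patterning and in the polarity of cell divisions. The ChIP asks where on the chromosome such a protein lies, and each region is a place where ChIP tags exceeded input tags. Chromosome V is the longest of the worm's chromosomes. Like the other autosomes it has a central part that recombines little and arms that recombine more and hold more repeats. Its arms are known for large families of chemoreceptor genes.

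The list was made from all 4 libraries together, so there is no value per library and no error between replicates for any region. Intervals of shares and medians below are exact 95% intervals that treat regions as independent, which neighbours are not. They cover counting error only. The depth of the libraries is unknown here. Regions of one chromosome are not replicates, so chromosomes and parts are set side by side as descriptions, with no test of their differences. Coordinates are those of the list, in WS180 and counted from 1. No annotation of that build was used, so what genes lie at the regions was not analysed here.

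Regions were less dense on V than on the other chromosomes together, and its lowest densities were in its outer parts. Chromosome V had 32.9 regions per Mb, against 38.4 per Mb on the other 5 chromosomes together. Of the 6 chromosomes only II, at 32.6 per Mb, was lower, and III was the highest at 48.2 per Mb. The regions of V covered 150088 bp, or 7.19 bp per kb, against 10.6 bp per kb on the other chromosomes, and no chromosome had less. V has 4995 protein-coding genes in the RefSeq table for WBcel235, the most of any chromosome. It had 13.8 regions per 100 such genes, against 14.5 on II and 26.7 on X, the lowest and highest of the others.

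For comparison along its length, V was divided into a left, a middle and a right part, each 33.3% of the span from base 1 to the last listed base, with borders at 6958326 and 13916653. The left part held 209 regions, the middle part 294 and the right part 184. As shares of the chromosome these were 30.4% (interval 27 to 34.01), 42.8% (39.1 to 46.6) and 26.8% (23.5 to 30.3). The middle part thus had 42.3 regions per Mb, against 30.04 in the left and 26.4 in the right, a ratio of 1.496 to the mean of the outer parts. By covered base pairs the contrast was 9.91 bp per kb in the middle, against 6.62 in the left and 5.04 in the right.

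The middle part of V was as dense as those of most other chromosomes. Its 42.3 regions per Mb stood above the middle parts of I, II, IV and X, of which X was the lowest at 38.0, and below III at 54.0. The right part of V, at 26.4 per Mb, was the least dense right part of the 6 chromosomes, where the others ran from 29.02 on IV to 49.2 on III. The left part of V was the second lowest left part, above II at 21.2 per Mb. All 5 autosomes had their highest density in the middle part, and X did not. The share in the middle part was 42.8% on V, against 36.5% on the other 5 chromosomes together and 38.3% on the other 4 autosomes. On II, the next highest, it was 42.2%. The lead of V over II was smaller than the interval of either share.

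**Figure D1:**
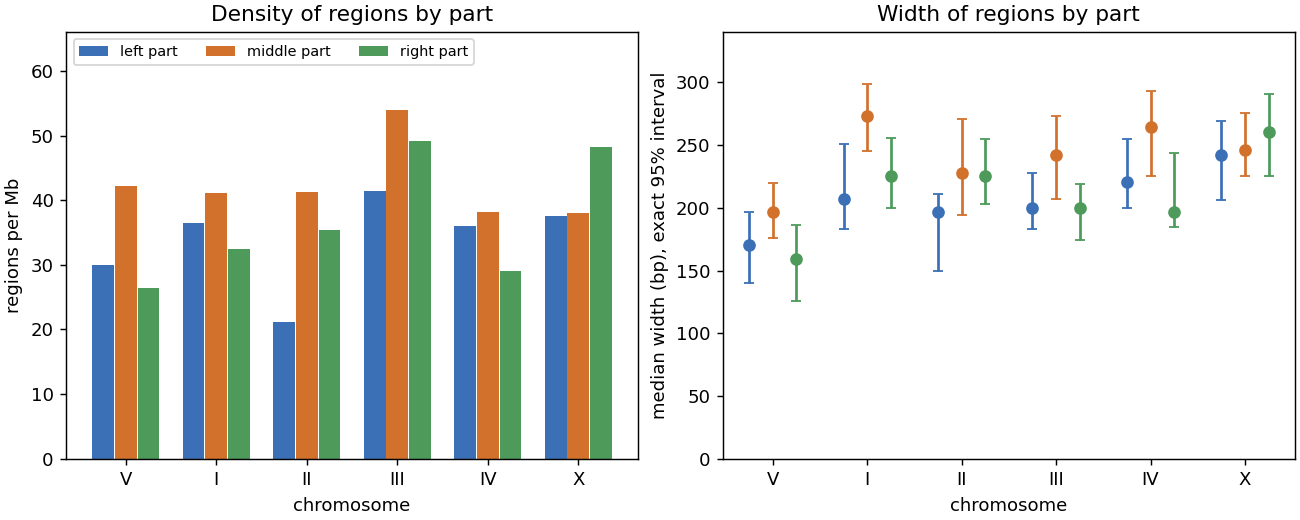
Density of EGL-27::GFP regions (left panel, regions per Mb) and median region width (right panel, bp, with exact 95% intervals as bars) in the left, middle and right part of V and of the other 5 chromosomes. The middle part of V reaches 42.3 per Mb while its right part, at 26.4, is the lowest right part, and V has the narrowest median in each part.

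The better-scored regions were still more central. Better-scored here means earlier in the list, whose order departs in places from that of the q-values. In the first 50% of the list, 47.7% of the V regions lay in the middle part. This compares with 38.1% on the other chromosomes together, X included, and 41.6% on the next highest chromosome. In those 50% the middle part of V was 1.82 times as dense as the mean of its outer parts, and in the best 25% it was 2.03 times as dense.

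In windows of 1 Mb, V did not change evenly from arm to centre. The 5 windows from the left end to 5 Mb held 30, 26, 27, 23 and 21 regions. The next 2 windows, nearly all of which still belongs to the left part, held 44 and 41. The window from 7000001 to 8000000 dropped back to 24, so the left border of the dense part was not a single step. From 8 to 15 Mb the windows held 37, 40, 50, 51, 35, 54 and 46 regions. The last of these, 14000001-15000000 with 46 regions, lies wholly in the right part. The most regions, 54, lay in the window 13000001-14000000.

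The right arm had a deep low and then a recovery toward the end. After 15 Mb the windows held 27, 16, 8, 22 and 30 regions, and the last, partly filled window of 0.875 Mb held 35. The window 17000001-18000000, with its 8 regions, was the emptiest full window of V and 6.75 times below the fullest. No full window of another chromosome went below 14 regions. Without that window the right part of V had 29.5 regions per Mb and remained below the left (30.04) and the middle (42.3).

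**Figure D2:**
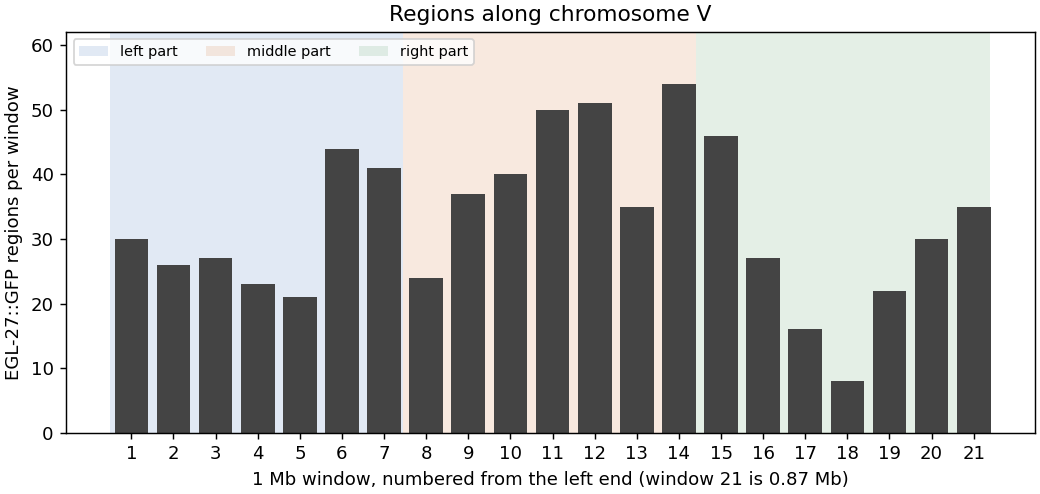
Number of EGL-27::GFP regions in each 1 Mb window of chromosome V, numbered from the left end, with the parts shaded. Windows 6 and 7 of the left part hold 44 and 41 regions, window 14 holds 54 and window 18 in the right part holds 8.

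V held the longest stretches without any region. The longest empty gap of the whole list was on V, at 17150602-17659379 in the right part, 508778 bp long. The second longest was also on V, at 2269075-2600570 in the left part, with 331496 bp. The next on V were 4195101-4439746 (244646 bp, left part), 20001477-20245309 (243833 bp, right part) and 2853162-3092647 (239486 bp, left part). V thus held 5 of the 10 longest gaps, and none of these 5 lay in its middle part.

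Counted in windows of 100 kb, 26 of 209 on V (12.4%) held no region, against 2.17% on III and 7.84% on II, the lowest and highest of the others. The empty windows numbered 13 of 70 in the left part, 2 of 69 in the middle part and 11 of 70 in the right part. Gaps over 100 kb were also fewest in the middle, with 17 of 209 gaps in the left part, 9 of 294 in the middle and 20 of 183 in the right. Of the 173 such gaps of the whole list, 46 were on V, among its 686 gaps. The other 5 chromosomes had 127 among 3036 gaps. An empty gap means only that nothing there passed the authors' threshold. Whether tags could be placed equally well in these stretches was not tested.

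The typical spacing of neighbouring regions on V was within the range of the other chromosomes. The median distance between neighbouring midpoints was 15.8 kb on V (interval 12.9 to 18.2), against 11.4 kb on III and 16.5 kb on IV, the shortest and longest of the others. Within V it was 16.5 kb in the left part (12.7 to 20.5), 13.2 kb in the middle part (10.2 to 17.7) and 18.4 kb in the right part (11.6 to 24.7). These intervals overlap, so the parts differ less clearly in the typical distance than in their number of regions. In the better-scored 50% of the list the middle part stayed the closest, with 25625.5 bp, but the left part, at 35210 bp, then lay above the right, at 31868.5 bp.

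Close neighbours were most common in the middle. Midpoints lay within 2 kb of each other in 15.3% of the pairs of the left part, 19.4% of the middle part and 13.1% of the right part. For V as a whole this was 113 of 686 pairs (16.5%), inside the range of 15.3% to 20.7% of the other chromosomes. The smallest gap between neighbours on V was 216 bp.

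**Figure D3:**
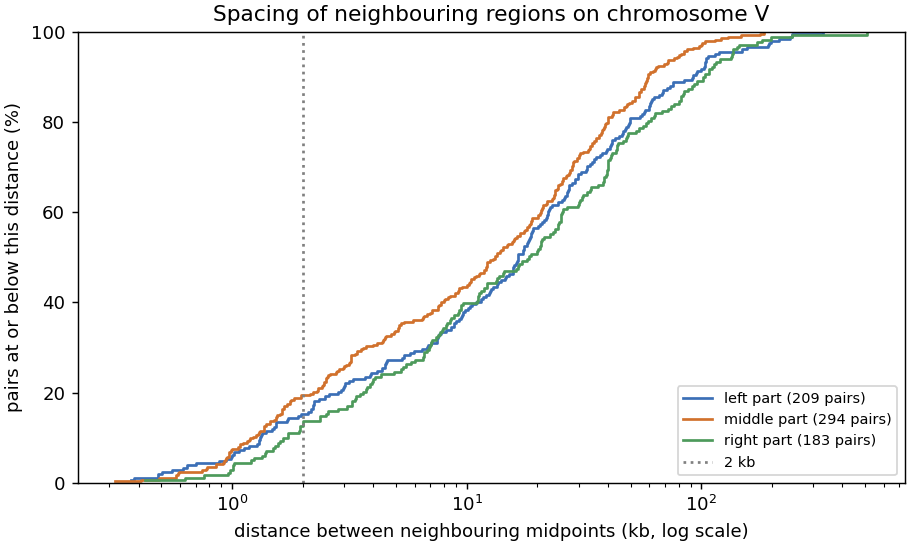
Cumulative share of neighbouring pairs of regions on V (y axis, %) by the distance between their midpoints (x axis, kb, log scale) in each part; the dotted line marks 2 kb. At 2 kb the curve of the middle part is the highest, with 19.4% of pairs, against 15.3% in the left and 13.1% in the right part.

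Regions on V had the smallest median width of the 6 chromosomes. The median width was 179 bp (interval 165 to 194), with quartiles of 88.5 and 294 bp, against 229 bp (220 to 238) on the other 5 chromosomes together. The lowest other chromosome was III, at 207 bp, and the highest was X, at 248 bp. Within V the median was 170 bp in the left part (140 to 197), 197 bp in the middle part (176 to 220) and 159 bp in the right part (126 to 186). Each of these was below the same part of every other chromosome. The next narrowest were II in the left part (197 bp, 150 to 211), II in the middle (227.5 bp, 194 to 271) and IV in the right (197 bp, 185 to 244). In each part the interval of V overlaps that of this next chromosome. Within V the interval of the middle part overlaps those of both outer parts. V remained the narrowest among the better-scored 50% of the list, with 286 bp against 328 bp on III, the next. It also remained so without regions under 50 bp, with 209 bp against 244 bp on III. All 5 autosomes had their widest median in the middle part.

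On V, 116 regions (16.9%) were under 50 bp wide, against 16.4% on III, the next highest, and 13.9% on the other chromosomes together. Of these 116, 6 were a single base pair wide. The regions under 50 bp numbered 43 in the left part (20.6% of its regions), 38 in the middle part (12.9%) and 35 in the right part (19.0%). Such regions were weak, with a median q of 0.00338 and none below 7.07e-05. These regions held few tags, and few tags cannot give the smallest q-values. Their weakness and their width are therefore not separate findings, and which follows from the other was not tested. Of the 116, 87 (75%) stood alone, with no other region within a gap of 2 kb, against 483 of all 687 regions of V (70.3%).

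Weak and strong regions were shared unevenly among the parts. The authors' q-value, given with each region, had a median of 0.00132 on V, against 9.96e-04 on the other chromosomes together. It was below 1e-05 in 112 regions of V (16.3%), a smaller share than on any other chromosome, where it ran from 18.9% on II to 22.3% on IV. Of these 112, 29 lay in the left part (13.9% of its regions), 60 in the middle part (20.4%) and 23 in the right part (12.5%).

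The strongest few did not follow that order. On V, 6 regions had a q below 1e-20, and 4 of them were in the left part, 0 in the middle and 2 in the right. The strongest of all was V:6227139-6228281, 1143 bp wide, with q = 7.11e-41, rank 8 of the whole list. V:19528979-19529558 in the right part was next (580 bp, q = 7.78e-25), followed by V:20773514-20774488 near the right end (975 bp, q = 3.13e-24). Then came 3 regions of the left part, V:6224353-6225264 (912 bp, q = 8.02e-23), V:6000212-6000760 (549 bp, q = 1.05e-21) and V:1151076-1151781 (706 bp, q = 6.02e-21).

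The next 4 regions on V were all in the middle part. They were V:7727859-7728777 (919 bp, q = 8.51e-20), V:10717019-10717774 (756 bp, q = 8.78e-20), V:11531911-11532586 (676 bp, q = 5.28e-19) and V:9343698-9344528 (831 bp, q = 6.18e-19). Of these 10 regions, 7 stood in stretches of 3 or more regions, 2 in pairs and 1, V:6000212-6000760, alone. V held 19 of the 100 best regions of the list, close to its 18.4% of all regions.

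Width and q-value went together on V (Spearman correlation of width with −log10 q of 0.67 across 687 regions), with 0.69 to 0.72 on the other chromosomes. The 5 widest regions were not the 5 strongest. V:5283999-5285749 was the widest at 1751 bp, with q = 3.60e-16. V:264948-266579, near the left end, was second at 1632 bp but had q = 8.56e-04, rank 1754 of the list. V:10715640-10716794 (1155 bp, q = 8.24e-18), V:6227139-6228281 (1143 bp) and V:12637118-12638209 (1092 bp, q = 3.41e-13) were the other regions of at least 1 kb. V thus had 5 such regions, 3 in the left part, 2 in the middle and 0 in the right.

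**Figure D4:**
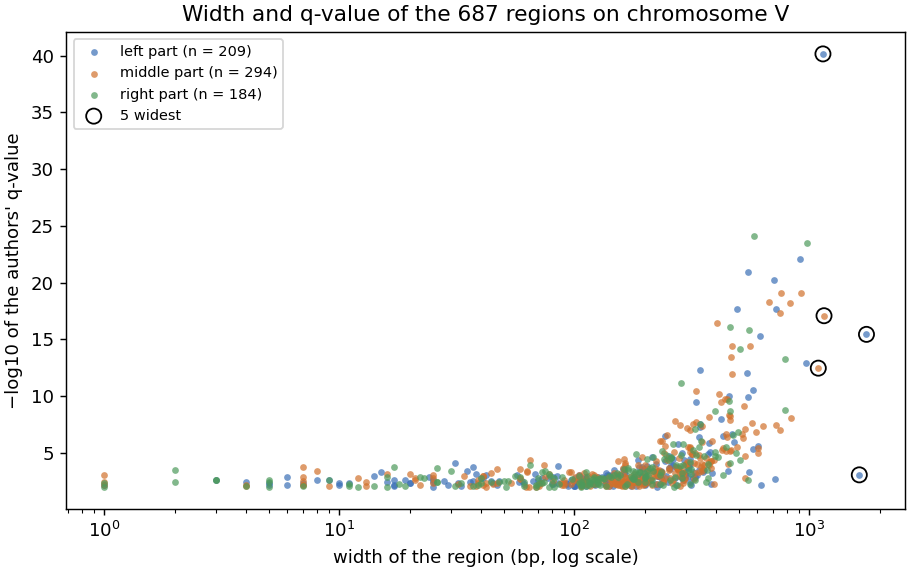
Width (x axis, bp, log scale) against −log10 of the authors' q-value (y axis) for the 687 regions of V, coloured by part, with the 5 widest ringed. The strongest region, at q = 7.11e-41, is 1143 bp wide, while the second widest, of 1632 bp, has only q = 8.56e-04.

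When gaps of no more than 2 kb were bridged, the 687 regions formed 483 single regions, 54 pairs and 27 stretches of 3 or more. The 27 stretches held 96 regions (13.97%) and spanned 1533 to 9490 bp, with a median of 3031 bp. The share of regions in such stretches was within the range of the other chromosomes, from 6.19% on I to 16.2% on X. By part, there were 7 stretches of 3 or more in the left, 13 in the middle and 7 in the right, with 12.4%, 16.3% and 12.0% of the regions of each. The higher number in the middle depended on the gap allowed. When only gaps of up to 1 kb were joined, 3, 2 and 3 such stretches were left in the left, middle and right part, too few to compare. With gaps of up to 5 kb there were 13, 21 and 10. The middle part also had the most regions to join.

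Regions in stretches were stronger and wider than single ones, although strength and width are tied and are not separate findings. Those in stretches of 3 or more had a median width of 250.5 bp (209 to 313), against 164 bp (152 to 177) for regions that stood alone. Of the 96, 21 (21.9%) were among the best 10% of the whole list, against 26 of 483 single regions (5.38%).

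The stretch with the most regions, 7 within 6577 bp, was at V:13654091-13660667 in the middle part. Its regions were 21 to 594 bp wide and weak to moderate, the best being V:13655130-13655723 with q = 1.41e-07, rank 431 of the whole list. The remaining 6 had q-values between 4.57e-05 and 0.00659.

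A different make-up was seen at V:6224353-6233302 in the left part, where 6 regions lay within 8950 bp. Here 3 wide regions of 912, 1143 and 971 bp carried q-values of 8.02e-23, 7.11e-41 and 1.22e-13. Small regions of 68, 126 and 291 bp, with q-values of 6.74e-04, 0.00132 and 0.00255, lay between and beside them. The strong regions were 1874 bp and 677 bp apart, the first of these distances being broken by the 68 bp region.

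At V:13081159-13090648 in the middle part, 6 regions spread over 9490 bp, the longest stretch on V. They were 216 to 838 bp wide and their q-values ran from 6.93e-10 at V:13082466-13082994 to 0.00451. Every gap between them was 957 bp or more.

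The stretch nearest an end of the chromosome with at least 5 regions was V:1151076-1156346, with 5 regions in 5271 bp. It began with the strong region V:1151076-1151781 and went on with regions of 10, 469, 194 and 477 bp. Their q-values were 0.00470, 2.21e-07, 9.90e-04 and 1.05e-06. Stretches of 4 regions were found besides at V:11531911-11535789, V:13389430-13393878 and V:20772107-20778145. The last of these holds the third strongest region of V.

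**Figure D5:**
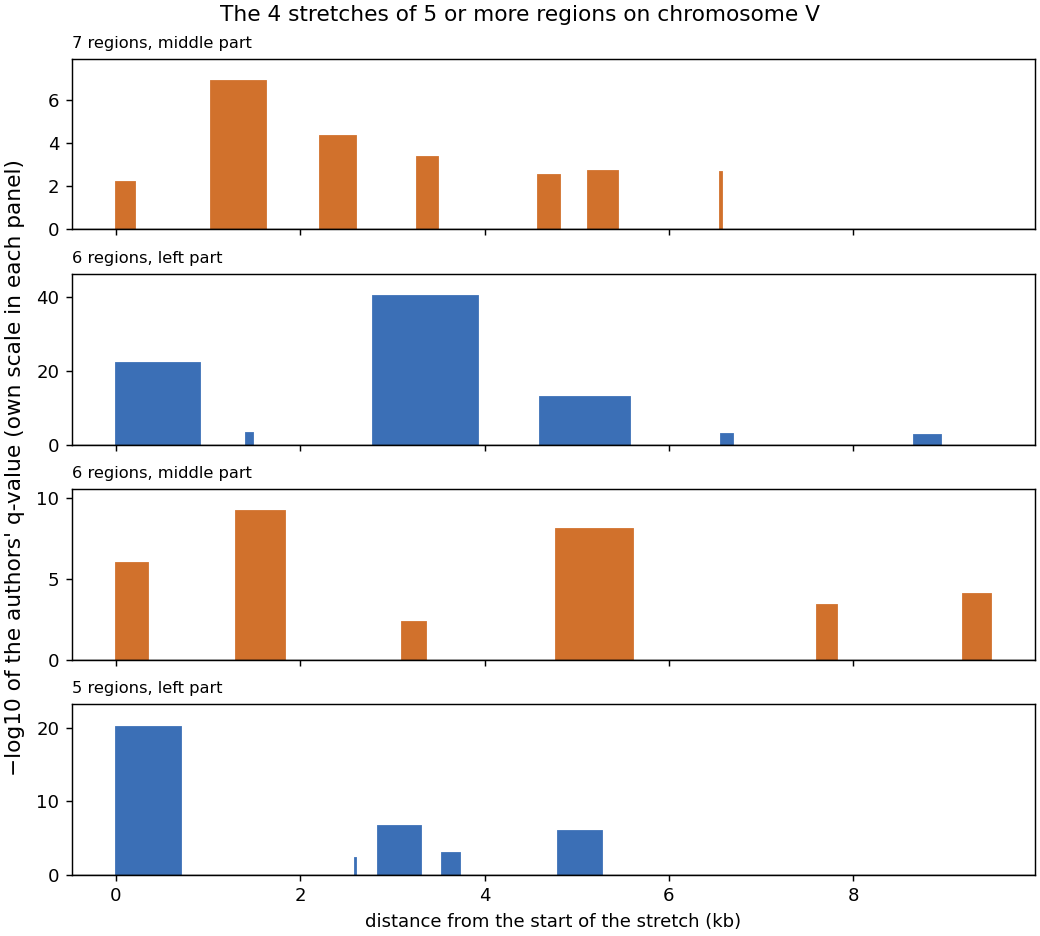
The 4 stretches of 5 or more regions on V, with distance from the start of the stretch on the x axis (kb) and −log10 of the authors' q-value on the y axis (each panel on its own scale); each bar is 1 region at its true width. The 6-region stretch of the left part has 3 strong wide regions, the best at q = 7.11e-41, while the 7-region stretch of the middle part has none below 1.41e-07.

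The q-values also allow the number of tags to be read. Multiplied by their rank in the list, they came back to 101 levels that at least 8 regions shared. Each level equalled 6924 times a lower binomial tail with share 0.5, within a relative tolerance of 1e-08. The next best number matched 0.99% of the levels. On this reading each region has a pair of ChIP tags and scaled input tags, found without ambiguity for 683 of the 687 regions on V. These tags are a reading of the q-values and not read counts of single libraries, so the values that follow hold only as far as this reading does.

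Regions on V held few tags and had high ratios. The median was 35 ChIP tags (quartiles 26 and 54) and 12 input tags (7 and 18), against 44 and 16 on the other 5 chromosomes together. Both medians were the lowest of the 6 chromosomes. The median ratio of ChIP to input was 3.2 on V (interval 3.12 to 3.3), the highest of the 6, against 2.84 on X and 3.14 on III, the lowest and highest of the others. The interval of III (3.04 to 3.22) overlaps that of V. A ratio of 5 or more was found in 77 regions of V (11.3%), against 7.27% on the other chromosomes together and 10.6% on III, the next highest. Few tags and high ratios are tied by the threshold, since a region with few tags can pass it only at a high ratio. The 116 regions of V under 50 bp had medians of 21 ChIP tags, 5 input tags and a ratio of 4.2, with no ratio below 2.78. Ratios of chromosomes or parts with unlike tag numbers are therefore not directly comparable.

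By part, the median ratio on V was 3.29 in the left (3.09 to 3.56), 3 in the middle (2.9 to 3.13) and 3.43 in the right (3.29 to 3.6), with 11, 14 and 9 input tags. The middle part had the lowest median ratio on all 6 chromosomes. Among the 309 regions of V at least 200 bp wide, the medians were 2.86, 2.89 and 3.1 in the left, middle and right part, so the middle was then no longer the lowest and the right was still the highest. V still had the highest median ratio among chromosomes for such regions, 2.92 against 2.63 on I and 2.87 on IV, the lowest and highest of the others. No interval was computed for these medians. The width limit did not make the chromosomes alike, since such regions had a median width of 310 bp on V, against 328 bp on II to 348 bp on X. These ratios are therefore still not directly comparable. Its median of 63.1 input tags per kb was the lowest, against 63.6 on IV and 71.9 on X, while its 189 ChIP tags per kb lay within the range of the others (186 to 193).

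The strongest regions of V differed in their numbers of tags, and less clearly in their ratios. V:6227139-6228281 had 354 ChIP tags and 77 input tags, or a ratio of 4.60 (3.58 to 5.96). V:1151076-1151781 had fewer, 147 and 24, and the highest ratio of the 10 strongest, 6.13 (3.96 to 9.86). V:9343698-9344528 had the lowest of the 10, 3.78 (2.77 to 5.26), with 193 and 51 tags. These intervals overlap, so the 10 strongest regions cannot be ordered by their ratio at this depth.

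Both of the widest regions had much input DNA for their width, set against the median of 63.1 tags per kb. V:264948-266579 had 593 ChIP tags, more than the strongest region, but also 477 input tags, a ratio of 1.24 (1.1 to 1.41), the lowest on V. Its 292 input tags per kb were the highest of the 309 regions of at least 200 bp, the next being 207. V:5283999-5285749 had 395 and 189 tags, a ratio of 2.09 (1.75 to 2.5), and 108 input tags per kb. What sets the input at these places was not tested.

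Tags were also summed over the regions of the 4 largest stretches. The 5 regions of V:1151076-1156346 together had 333 ChIP tags and 74 input tags, or a ratio of 4.5 (3.49 to 5.87). The 6 regions of V:6224353-6233302 had 818 and 206, a ratio of 3.97 (3.4 to 4.65). In the middle part, V:13081159-13090648 had 446 and 150, a ratio of 2.97 (2.47 to 3.6), and V:13654091-13660667 had 387 and 152, a ratio of 2.55 (2.11 to 3.09). These are sums over regions that each passed the threshold, and differences between the stretches were not tested.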

How the data were processed

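The only data were a list of PeakSeq binding sites in WormBase WS180, per the file headers, made by the authors from all 4 libraries together. For each region the authors deposited its first and last base and a q-value (a p-value adjusted for multiple testing). How reads were aligned, scaled and scored, and whether replicates are separate cultures, is not given in the sources used here. Widths, distances, the parts of a chromosome (by region midpoint) and stretches were computed with Python 3.11.15, pandas 2.3.3 and NumPy 2.4.6. Exact (Clopper-Pearson and order-statistic) intervals at 95% came from SciPy 1.17.1. Tag pairs were matched with sums of 8 to 6000 tags, and the number of tested regions was scanned from 3728 to 20000. Both steps were tested on simulated data made by the same binomial rule. This checks the code, not whether the authors' q-values were made by that rule. Alternatives were better-scored parts of the list, merging within 500 bp, a minimum width, covered base pairs, other divisions of the chromosome and other gaps for stretches. The regions named are the 10 with the smallest q-values, the 5 widest, the stretches of 5 or more, the 5 longest gaps and the extreme windows. Others were chosen after their values were seen. The chromosome and the lists were chosen with earlier results of these data known. RefSeq's WBcel235 table gave gene numbers per chromosome only.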

Additional observations from a re-analysis of the deposited data

How the results depend on the processing

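No paired analysis was possible because each region has 1 q-value from both replicates together, so no replicate could be left out either. Of 68 recomputed values, 42 stayed within their interval (counts within 1.5 times) and 26 moved. The middle part of V (or its central 50%) kept the highest density under all 10 alternatives tried for it, with ratios to the outer parts from 1.40 to 2.03. The better-scored 50% moved the ratio to 1.82 and the left and middle shares to 26.8% and 47.7%, and the better-scored 25% moved them to 2.03, 24.1% and 50.4%, with the right part (25.5%) then above the left. By covered base pairs the right share was 23.4% and the density of V relative to the other chromosomes 0.681, against 0.857 by regions. Median widths in the left, middle and right part were 287, 298 and 257 bp in the better-scored 50%. Without regions under 50 bp they were 208.5, 222.5 and 198 bp, in the same order. Both sets were wider at least in part by construction. In the first, width and q-value are tied, and in the second, narrow regions were left out. Median distances in the better-scored 50% were 35210 bp, 25625.5 bp and 31868.5 bp, longer by construction. Stretches of 3 or more numbered 3, 2 and 3 with gaps of up to 1 kb. With gaps of up to 5 kb the left and middle part had 13 and 21, and without regions under 50 bp the left part had 4. Median ratios among regions of at least 200 bp were 2.86, 2.89 and 3.10. That width limit and the alternatives that left out the stretches of 5 or more, the fullest or the emptiest window were chosen after seeing the data. Where no construction is named, the cause was not tested. The unknown depth of the libraries limits what can be said of empty gaps and weak regions.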
